A study of Mus musculus with 2 samples.

Results

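Malat1 and Neat1 are long noncoding RNAs that stay in the nucleus, and both were higher in the SRSF2-KO-labelled library. They were chosen by symbol from a table of mouse liver transcripts, where each had 1 row, and they are 2 of the 34556 distinct row names in 36771 rows. They were picked with their levels in these libraries known, so their levels and ratios are given as a description with no test. Liver RNA of BALB/c mice aged 5 months was sequenced as 1 library labelled SRSF2-KO (genotype SRSF2-/-, which the design text calls specific to liver) and 1 library labelled WT (wild type). The sources used here name neither the Cre line nor the sex of the mice, and do not say whether animals were pooled. With 1 library per genotype no difference below has a replicate check.

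Srsf2, the targeted gene, was not lower in the SRSF2-KO-labelled library. It stood at 45.3 FPKM (fragments per kilobase of transcript, scaled to a fixed number of mapped fragments) there and at 38.2 FPKM in the WT-labelled library, a ratio of 1.19 with a 95% counting interval of 1.10 to 1.29. The level of the targeted gene thus went against the label, and the table does not tell which part of Srsf2 was deleted. Every direction given here is one between libraries named by their labels.

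Malat1 is made in nearly every cell type and collects at nuclear speckles, bodies that store splicing factors such as the SR proteins. SRSF2, also called SC35, is one of the SR proteins. Neat1 is the scaffold of a neighbouring body, the paraspeckle, and comes as a short polyadenylated transcript and a long transcript, of which the long one builds the body. Neither Malat1 nor the long Neat1 transcript ends in an ordinary poly(A) tail. RNase P cuts each of them beside a tRNA-like structure, and U-rich motifs fold with an A-rich tract into a triple helix that protects the new end.

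The 3′ ends are shown because they set the polyadenylated Neat1 transcript apart from the long, cleaved one, while the deposited table has a single value per gene. The sequences are those of the GENCODE M21 transcripts (GRCm38, chromosome 19, minus strand), written 5′ to 3′ with T for U. Capitals mark the pair of U-rich motifs and the A-rich tract in Malat1-201 and Neat1-201, and the polyadenylation signal in Neat1-202.
Malat1-201: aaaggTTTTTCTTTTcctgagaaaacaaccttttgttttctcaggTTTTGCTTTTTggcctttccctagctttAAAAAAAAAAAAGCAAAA
Neat1-201: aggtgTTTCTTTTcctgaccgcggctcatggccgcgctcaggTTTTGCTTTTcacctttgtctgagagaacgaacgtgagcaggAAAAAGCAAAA
Neat1-202: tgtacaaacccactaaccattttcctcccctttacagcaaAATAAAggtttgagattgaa
The Malat1 stretch covers bases 6601 to 6691 of a transcript of 6983 bases, so that 292 annotated bases follow the A-rich tract. The Neat1-201 stretch covers bases 20677 to 20771 and is the very end of that transcript. Neat1-202 has 3004 bases, of which 2945 to 3004 are shown. The stretches shown of Malat1-201 and Neat1-201 thus share the order of U-rich, U-rich and A-rich elements. The short Neat1 transcript ends after an AATAAA signal. The annotated Malat1-201 also holds an AATAAA near its annotated end, starting at base 6962 of 6983. The table does not say which of these transcripts its Neat1 value stands for. The labels name total RNA as the molecule, the design text speaks of mRNA, and neither states whether poly(A) RNA was selected.

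Malat1 stood at 142.5 FPKM in the SRSF2-KO-labelled library, against 59.7 FPKM in the WT-labelled library. The ratio was 2.39. Malat1 ranked 458 among all rows in the SRSF2-KO-labelled library and 1168 in the WT-labelled library. Of the rows with at least 1 FPKM, 4.12% of 11098 lay above it in the SRSF2-KO-labelled library and 11.1% of 10528 in the WT-labelled library. It was thus among the more abundant transcripts of both livers.

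Neat1 stood at 36.8 FPKM in the SRSF2-KO-labelled library, against 11.7 FPKM in the WT-labelled library, a ratio of 3.14. It ranked 1552 in the SRSF2-KO-labelled library, where 14.0% of the rows with at least 1 FPKM lay above it, and 3943 in the WT-labelled library, where 37.4% did. Neat1 therefore lay below Malat1 in each library, on a scale that divides by a transcript length which is not stated for either RNA. The Neat1 level was 0.258 of the Malat1 level in the SRSF2-KO-labelled library and 0.196 in the WT-labelled library. This ratio within a library does not depend on how that library was scaled, and it was 1.31 times as high in the SRSF2-KO-labelled library.

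**Figure D1:**
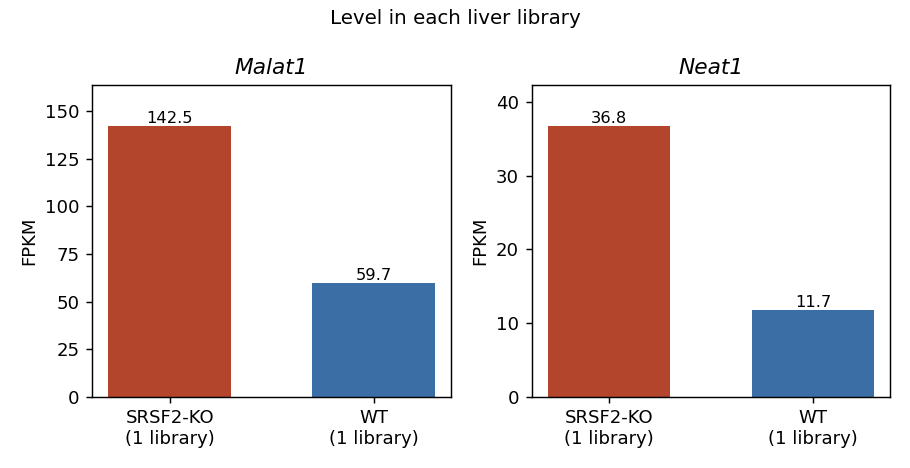
Level of Malat1 and of Neat1 in FPKM (linear axes from 0) in the SRSF2-KO-labelled library and the WT-labelled library, 1 bar per library and no error bars because there are no replicates. Malat1 is at 142.5 FPKM (labelled SRSF2-KO) against 59.7 FPKM (labelled WT) and Neat1 at 36.8 FPKM (labelled SRSF2-KO) against 11.7 FPKM (labelled WT).

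The number of reads behind these values was estimated, since low FPKM values step in whole reads. In units of 1000000 fragments, the steps gave a depth of 24.4 (labelled SRSF2-KO) against 19.4 (labelled WT). With the longest annotated transcripts, 6983 bases for Malat1 and 20771 for Neat1, Malat1 corresponds to 23660 reads (labelled SRSF2-KO) against 7874 reads (labelled WT), and Neat1 to 18490 reads (labelled SRSF2-KO) against 4682 reads (labelled WT). The 95% exact (Clopper-Pearson) intervals of the ratios were then 2.33 to 2.45 for Malat1 and 3.04 to 3.24 for Neat1. With the shortest annotated transcripts, 485 and 711 bases, they widened to 2.12 to 2.70 and 2.56 to 3.86. The intervals of the 2 RNAs did not overlap at the longest lengths and did overlap at the shortest, and which lengths the authors used is not given. These intervals cover counting error alone and say nothing of the spread between animals.

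On the log2((SRSF2-KO + 1)/(WT + 1)) scale of FPKM, Malat1 had a log2 ratio of 1.24 and Neat1 one of 1.57. Across the 11428 rows that reached 1 FPKM in either library the median log2 ratio was -0.04. Of these rows, 5.49% were 2-fold or more higher and 3.22% were 2-fold or more lower in the SRSF2-KO-labelled library. A log2 ratio above that of Malat1 was found in 431 rows (3.77%), and above that of Neat1 in 279 rows (2.44%). Among the 10198 rows with at least 1 FPKM in both libraries, 3.17% were 2-fold or more higher and 2.86% 2-fold or more lower (6.03% apart in either direction), and 204 rows had a log2 ratio above that of Malat1 and 125 above that of Neat1. With FPKM rescaled to equal totals (TPM), which moved the median of all rows by 0.31 to 0.27, the log2 ratios were 1.59 for Malat1 and 1.94 for Neat1. Both stayed above 1 under every scaling and pseudocount tried.

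**Figure D2:**
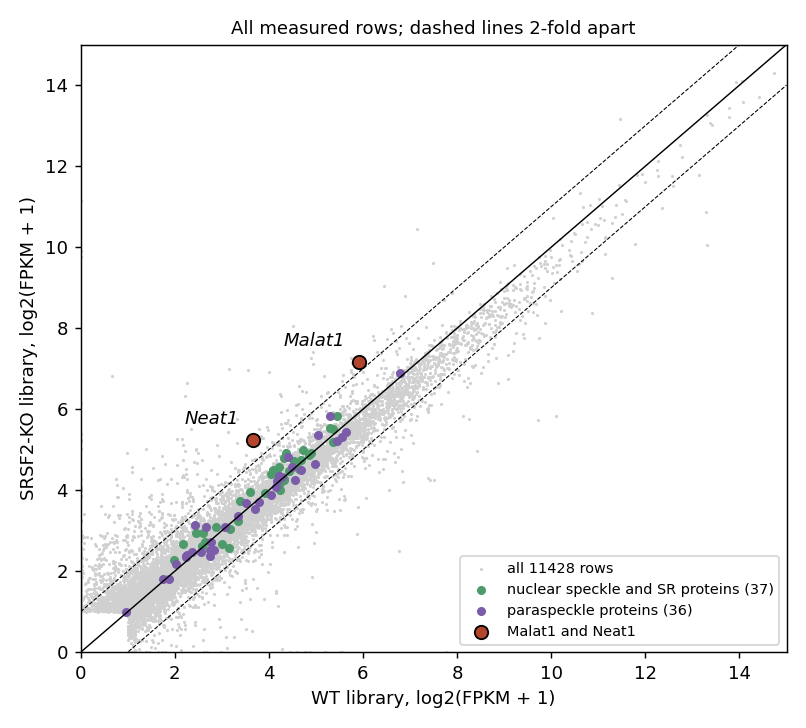
Level of all 11428 measured rows as log2(FPKM + 1), with the SRSF2-KO-labelled library on the vertical axis and the WT-labelled library on the horizontal axis; the solid line marks equal levels and the dashed lines a 2-fold difference on this scale. Malat1 and Neat1 lie above the upper dashed line. The transcripts of all 36 measured paraspeckle proteins and all 37 nuclear speckle and SR proteins lie between the dashed lines.

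**Figure D3:**
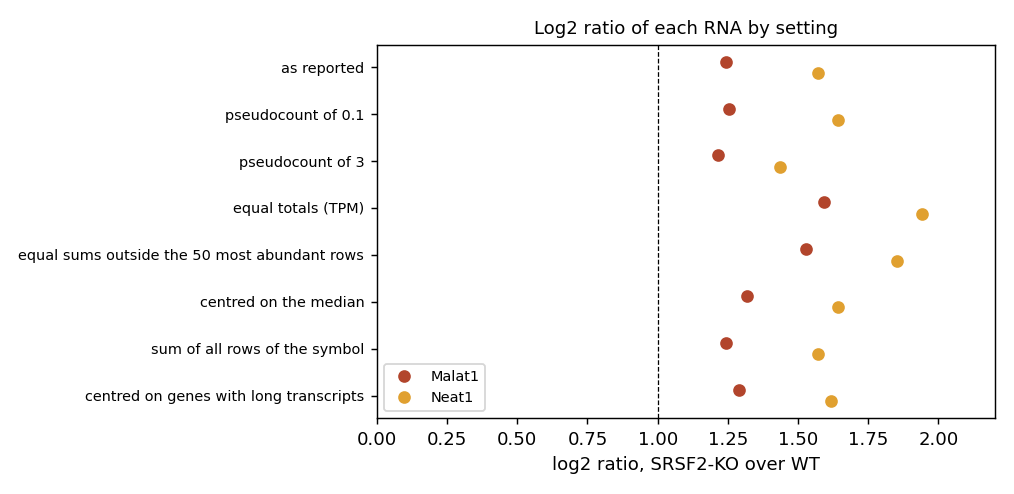
Log2 ratio of Malat1 and of Neat1 (library labelled SRSF2-KO over library labelled WT) as reported and under each alternative scaling, pseudocount and choice of rows, with a dashed line at a log2 ratio of 1. All points lie to the right of that line, from 1.22 to 1.59 for Malat1 and from 1.44 to 1.94 for Neat1.

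Both RNAs have a long annotated transcript, and protein-coding genes grouped by transcript length are described beside them. The part of length in the levels of the 2 RNAs was not tested. The 1224 measured protein-coding genes whose longest annotated transcript has at least 6000 bases had a median log2 ratio of -0.03, and 2.21% of them were 2-fold or more higher and 1.47% 2-fold or more lower in the SRSF2-KO-labelled library. Among 541 protein-coding genes with transcripts under 1000 bases the median was -0.16.

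Transcripts of the proteins that form paraspeckles with Neat1 lay close to equal levels. No protein was measured, and a protein named with a value stands throughout for the RNA level of its gene. Of 8 proteins needed to build the body, none was at least 2-fold apart, and the median log2 ratio was 0.12. Of all measured rows, 8.71% were at least 2-fold apart. Sfpq, which binds Neat1 directly, stood at 27.5 FPKM (labelled SRSF2-KO) against 20.3 FPKM (labelled WT), and its partner Nono at 42.0 FPKM (labelled SRSF2-KO) against 48.6 FPKM (labelled WT). The lowest log2 ratio, at -0.37, was that of Hnrnph3, with 4.23 FPKM (labelled SRSF2-KO) against 5.75 FPKM (labelled WT). The level of Hnrnpk, which favours the long Neat1 transcript over the short one, was 117.9 FPKM (labelled SRSF2-KO) against 109.5 FPKM (labelled WT), a ratio of 1.08.

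Another 28 measured paraspeckle proteins had a median log2 ratio of 0.02, or -0.06 with at least 5 FPKM required. Of these 28, none was at least 2-fold apart, against 8.71% of all measured rows. Rbmx, an hnRNP protein, was highest at 0.69, with 7.75 FPKM in the SRSF2-KO-labelled library and 4.42 FPKM in the WT-labelled library. Cirbp, a cold-inducible RNA-binding protein, followed at 0.44. Hnrnph1 (-0.34) and Nudt21 (-0.30) were lowest. Nudt21 and Cpsf6 are the subunits of the cleavage factor that ends the short Neat1 transcript. Cpsf6 stood at 5.64 FPKM (labelled SRSF2-KO) against 5.84 FPKM (labelled WT) and Nudt21 at 4.80 FPKM (labelled SRSF2-KO) against 6.12 FPKM (labelled WT). The log2 ratio of Neat1 (1.57) was higher than that of every paraspeckle protein measured.

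Transcripts of the proteins of nuclear speckles, where Malat1 gathers, were also near equal levels. Of 28 scaffold proteins, kinases and splicing factors, 18 lay above 0 and none was at least 2-fold apart, with a median log2 ratio of 0.05. Of all measured rows, 46.1% lay above 0 and 8.71% were at least 2-fold apart. The speckle cores Son and Srrm2 had levels of 26.8 FPKM (labelled SRSF2-KO) against 18.95 FPKM (labelled WT) and 21.2 FPKM (labelled SRSF2-KO) against 16.7 FPKM (labelled WT). Ddx39b, an RNA helicase of mRNA export, was highest (0.55), followed by the speckle protein Pnn (0.51), and the kinase Dyrk1a (-0.33) and the splicing factor Sf3b1 (-0.23) were lowest. The kinases Clk1 and Clk4, which release SR proteins from speckles, had log2 ratios of -0.17 and -0.05. The 9 SR proteins, Srsf2 included, had a median of 0.26, with none at least 2-fold apart; Srsf6 (0.41) and Srsf5 (0.40) were highest and Srsf4 (-0.58) and Srsf3 (0.04) lowest.

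Transcripts of the machinery that makes or degrades the ends of nuclear RNAs were close to equal as well. Of 17 measured genes of RNase P, RNase Z and RNA modification none was at least 2-fold apart, and the median log2 ratio was 0.01. Rpp38, an RNase P subunit, had the highest log2 ratio at 0.87, with 5.39 FPKM in the SRSF2-KO-labelled library and 2.48 FPKM in the WT-labelled library. Without a pseudocount its ratio was 2.17, with a counting interval of 1.49 to 3.13. Pop5, another subunit, was lowest at -0.60, with 17.6 FPKM (labelled SRSF2-KO) against 27.2 FPKM (labelled WT). Next to these extremes stood Drosha (0.26), the microRNA processing enzyme, and Rpp14 (-0.30). Elac2, the RNase Z that trims the tRNA-like product, stood at 7.40 FPKM (labelled SRSF2-KO) against 7.83 FPKM (labelled WT), and Mettl16, a methyltransferase that binds the Malat1 triple helix, at 2.87 FPKM (labelled SRSF2-KO) against 3.71 FPKM (labelled WT). The nuclear exosome, which degrades nuclear RNA, and its adaptors had a median of 0.07 over 14 genes, led by Pabpn1 at 0.59 and Dis3 at 0.29, with Exosc5 (-0.35) and Rbm7 (-0.29) lowest. In all, 103 measured partner and processing proteins lay between log2 ratios of -0.60 and 0.87 around a median of 0.05. Of them, 65 lay above 0, where 46.1% of all measured rows did. At least 2-fold apart were 0 of them, where 8.71% of all rows were. One member, Rpp38, passed 2-fold with a pseudocount of 0.1 or with both libraries scaled to the same sum outside their most abundant rows (the equal-sum rescaling), and Rpp38 and Rbmx did under TPM. Under TPM the median of the 103 was 0.38, where that of all rows was 0.27.

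**Figure D4:**
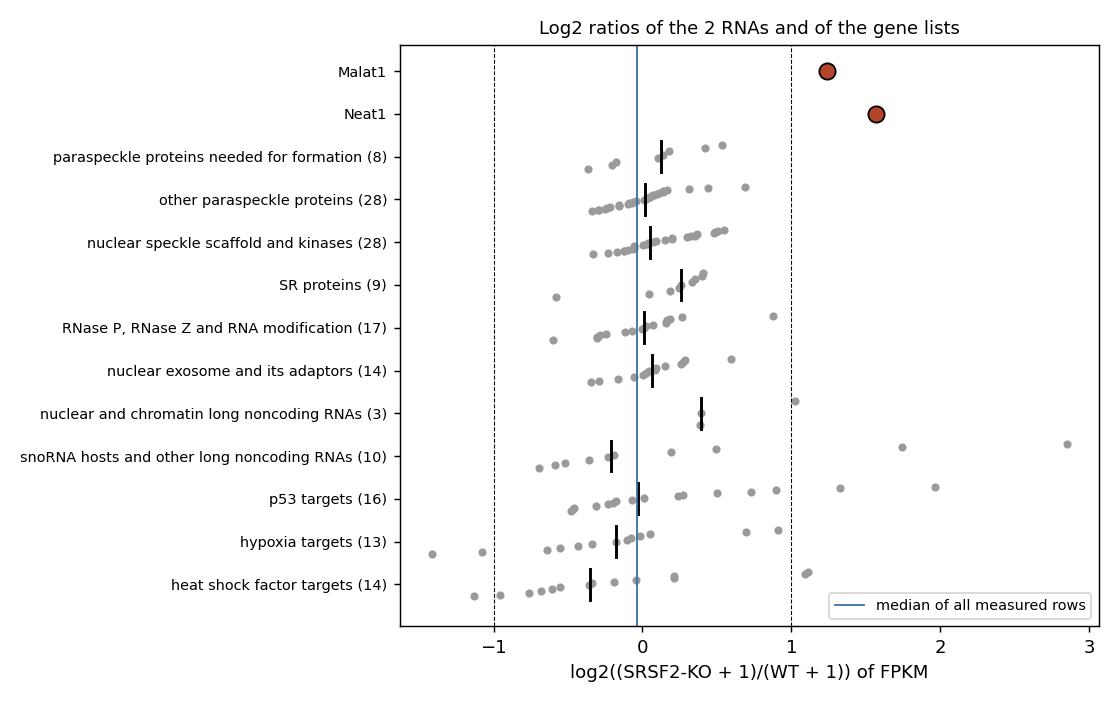
Log2((SRSF2-KO + 1)/(WT + 1)) of FPKM for Malat1, Neat1 and every measured gene of 11 lists, 1 point per gene and a black bar at each list's median; the number of measured genes is in brackets, the blue line is the median of all measured rows and the dashed lines mark 2-fold. Malat1 and Neat1, at 1.24 and 1.57, lie to the right of the transcript of every paraspeckle, speckle, SR, processing and exosome protein plotted.

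Other long noncoding RNAs differed in both directions. Of the rows that GENCODE M21 classes as intergenic long noncoding RNAs, a class chosen after the values were seen, 42 were measured, and 14.3% were 2-fold or more higher and 14.3% 2-fold or more lower in the SRSF2-KO-labelled library. Their median log2 ratio was -0.10, below that of all rows, of which 5.49% were 2-fold or more higher and 3.22% lower. By level, Malat1 ranked 1 in the class in the SRSF2-KO-labelled library and 3 in the WT-labelled library, and Neat1 ranked 5 (labelled SRSF2-KO) and 8 (labelled WT). Malat1 and Neat1 are 2 of the 6 higher ones. Among the higher ones, H19, Gm13056 and AI838599 were under 1 FPKM in the WT-labelled library. Among the lower ones, Gm11752, 0610043K17Rik and D730045B01Rik were under 1 FPKM in the SRSF2-KO-labelled library. These rows met the 1 FPKM filter only through the library where they were higher. Higher log2 ratios than that of Malat1 belonged to 3 of the 42. These were Neat1, H19, an imprinted RNA of fetal liver, and the unnamed model Gm13056. The last stood at 3.37 FPKM (labelled SRSF2-KO) against 0.130 FPKM (labelled WT). H19 stood at 6.37 FPKM in the SRSF2-KO-labelled library and 0.0230 FPKM in the WT-labelled library, where that value is worth under 1 read at the median length of its transcripts, so no fold is given.

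Among listed nuclear and chromatin-bound RNAs only 3 of 17 were measured, and all of them had log2 ratios above 0. Of all measured rows, 46.1% did. Without the filter on low values, 5 of 8 listed RNAs lay above 0. Firre, which anchors chromatin at the nuclear matrix and appears under its older name 6720401G13Rik, stood at 4.41 FPKM in the SRSF2-KO-labelled library and 1.66 FPKM in the WT-labelled library. Its ratio was 2.66, with a counting interval of 1.596 to 4.635. Tug1 stood at 8.33 FPKM (labelled SRSF2-KO) against 6.13 FPKM (labelled WT) and the imprinted Meg3 at 1.16 FPKM (labelled SRSF2-KO) against 0.644 FPKM (labelled WT). The ratio of Meg3 was 1.80, with a wide counting interval of 0.691 to 4.52. Of 10 measured snoRNA host and other long noncoding RNAs, 2 were 2-fold or more higher and none was 2-fold or more lower. Of all measured rows, 5.49% were 2-fold or more higher and 3.22% lower. The higher ones were H19 and Dancr (older name 2700023E23Rik), a snoRNA host, at 3.88 FPKM (labelled SRSF2-KO) against 0.456 FPKM (labelled WT). This list had a median of -0.21, which was 0.07 under TPM and 0.02 under the equal-sum rescaling. Gas5, an abundant snoRNA host that is also long noncoding, stood at 105.8 FPKM (labelled SRSF2-KO) against 124.1 FPKM (labelled WT), and Mir22hg was lowest at 7.01 FPKM (labelled SRSF2-KO) against 11.97 FPKM (labelled WT). Zfas1 (row 1500012F01Rik) followed at -0.59.

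Of 3 messenger RNAs known to be held in the nucleus, none was 2-fold or more higher and 1, Slc7a2, was 2-fold or more lower. Over all measured rows these shares were 5.49% and 3.22%. That member fell short of 2-fold under TPM and the equal-sum rescaling, and the list's median log2 ratio of -0.40 became -0.07 under TPM and -0.13 under the equal-sum rescaling. Slc7a2, an arginine transporter gene with a nuclear transcript found in mouse paraspeckles, stood at 72.5 FPKM in the SRSF2-KO-labelled library and 152.3 FPKM in the WT-labelled library, a ratio of 0.476 (counting interval 0.461 to 0.491). The table does not separate its nuclear from its cytoplasmic transcript. Nlrp6 was at 16.04 FPKM (labelled SRSF2-KO) against 21.5 FPKM (labelled WT), and Mlxipl, a glucose-responsive transcription factor gene whose mRNA is largely nuclear in mouse liver, at 46.2 FPKM (labelled SRSF2-KO) against 42.6 FPKM (labelled WT), a ratio of 1.09.

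Malat1 and Neat1 lie next to each other on chromosome 19 in GENCODE M21. Of the nearest 5 protein-coding genes on each side, 8 were measured. Of these 8, 0 were at least 2-fold apart, where 8.71% of all measured rows were. Their log2 ratios ran from -0.15 to 0.32 around a median of 0.19. The level of Frmd8, which stabilises an inactive rhomboid protease, was 3.52 FPKM (labelled SRSF2-KO) against 4.03 FPKM (labelled WT). On the Malat1 side Ehbp1l1 (0.32), Fam89b (0.23) and Sssca1 (0.19) had log2 ratios above 0. On the Neat1 side Frmd8 (-0.15), Slc25a45 (-0.14) and Dpf2 (-0.04) lay below 0 and Cdc42ep2 (0.20) above it. The TPM and equal-sum rescalings add 0.35 and 0.29 to the log2 of every ratio without a pseudocount, which puts the 3 below 0 above it as well. Ltbp3 and Tigd3 were not measured. Because the strandedness of the libraries is not given, reads from antisense transcripts at these loci cannot be told apart from Malat1 and Neat1.

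**Figure D5:**
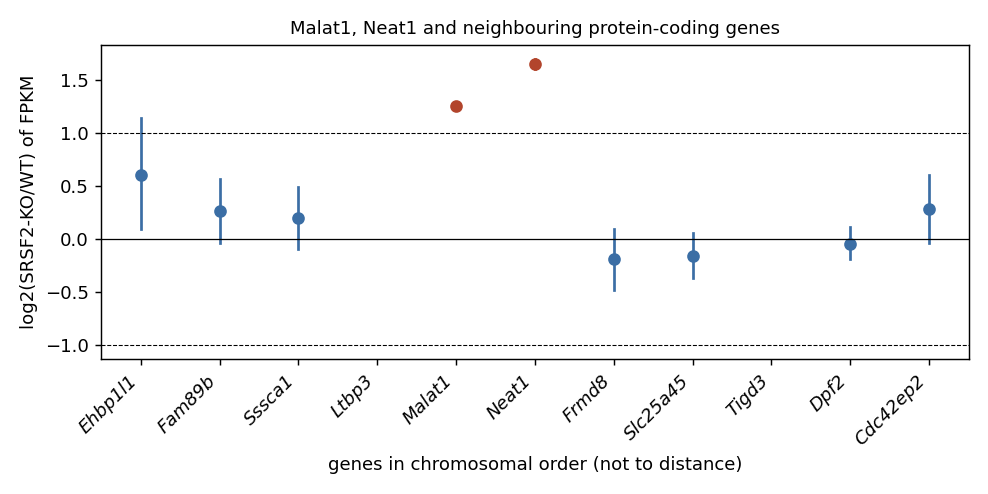
Log2 of the FPKM ratio without a pseudocount (library labelled SRSF2-KO over library labelled WT) for Malat1, Neat1 and 9 of the nearest protein-coding genes on either side, in chromosomal order and not to distance; vertical lines are 95% exact counting intervals, shorter than the symbols for Malat1 and Neat1, and Ltbp3 and Tigd3 have no point because they were under 1 FPKM in both libraries. The measured neighbours shown lie between the dashed 2-fold lines and the 2 noncoding RNAs above them.

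Transcription of Neat1 is known to respond to p53, to hypoxia and to heat shock factor, and the target genes of these pathways were examined beside it. For comparison with the counts in these lists, 5.49% of all measured rows were 2-fold or more higher and 3.22% 2-fold or more lower. Of 16 measured p53 targets, 2 were 2-fold or more higher and none was 2-fold or more lower, with a median of -0.03 that was 0.29 under TPM and 0.23 under the equal-sum rescaling. Cdkn1a, the p21 cell cycle inhibitor, stood at 7.68 FPKM (labelled SRSF2-KO) against 1.23 FPKM (labelled WT) and Plk2, a polo-like kinase, at 7.77 FPKM (labelled SRSF2-KO) against 2.50 FPKM (labelled WT). Mdm2, which degrades p53, had a log2 ratio of 0.24. The lowest were Trp53inp1 (-0.48) and Perp (-0.47). Phlda3, a p53-induced inhibitor of Akt signalling, fell short of 2-fold on this scale (0.90), and its ratio without a pseudocount was 2.97 with a counting interval of 1.77 to 5.22. With Phlda3 the higher members numbered 3 at a pseudocount of 0.1 and under the equal-sum rescaling, and with Bbc3 as well they numbered 4 under TPM. The unmeasured Tnfrsf10b, Eda2r and Pmaip1, each under 1 FPKM in both libraries, had ratios of 14.5, 4.96 and 2.82. Their counting intervals were wide, at 5.199 to 52.49, 2.069 to 12.3 and 1.365 to 6.927. Zmat3, the other unmeasured p53 target, had a ratio of 1.067.

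Hypoxia targets had 0 of 13 measured members 2-fold or more higher and 2 that were 2-fold or more lower, around a median of -0.18 that was 0.12 under TPM and 0.06 under the equal-sum rescaling. Pdk1, which restrains entry of pyruvate into mitochondria, stood at 12.1 FPKM in the SRSF2-KO-labelled library and 34.0 FPKM in the WT-labelled library, and Bnip3, a mitophagy receptor, at 81.9 FPKM (labelled SRSF2-KO) against 174.0 FPKM (labelled WT). Ndrg1 and Hk2 had the highest log2 ratios, 0.91 and 0.70. Without a pseudocount the ratio of Ndrg1 was 2.13 (counting interval 1.38 to 3.46) and that of Hk2 was 4.02 (2.21 to 7.98). Both passed 2-fold at a pseudocount of 0.1 and under TPM. Under TPM and the equal-sum rescaling only Pdk1 remained 2-fold or more lower. Of 14 measured heat shock factor targets, 2 were 2-fold or more higher and 1 was 2-fold or more lower, with a median of -0.35 that was -0.03 under TPM and -0.09 under the equal-sum rescaling. Serpinh1, a collagen chaperone, was at 8.65 FPKM (labelled SRSF2-KO) against 3.47 FPKM (labelled WT) and the small heat shock protein Hspb1 at 22.6 FPKM (labelled SRSF2-KO) against 10.1 FPKM (labelled WT). Dnaja1, a co-chaperone of Hsp70 and the lower member, which was under 2-fold with either rescaling, was at 58.2 FPKM (labelled SRSF2-KO) against 128.5 FPKM (labelled WT) and Hsph1 at 6.91 FPKM (labelled SRSF2-KO) against 14.4 FPKM (labelled WT).

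The symbols with the most similar pair of levels were found by the distance in log2(FPKM + 1) over the 2 libraries, among all measured rows. Nearest to Malat1 were Igfbp7 (distance 0.161), Fdps, Gm6484, Snord118 and Actg1. Igfbp7 stood at 139.0 FPKM (labelled SRSF2-KO) against 53.4 FPKM (labelled WT) and Fdps at 153.6 FPKM (labelled SRSF2-KO) against 52.5 FPKM (labelled WT). Nearest to Neat1 were Pgd (distance 0.194), Mmp15, Srxn1, Cxadr and Sparc. Pgd stood at 38.1 FPKM (labelled SRSF2-KO) against 13.5 FPKM (labelled WT) and Mmp15 at 39.4 FPKM (labelled SRSF2-KO) against 13.3 FPKM (labelled WT). With 2 libraries such likeness rests on 2 values per gene.

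Markers of the cell types in liver differed between the libraries beside Malat1 and Neat1. Over all measured rows, 5.49% were 2-fold or more higher and 3.22% 2-fold or more lower in the SRSF2-KO-labelled library. A log2 ratio above 0 was found in 46.1% of them. In bulk RNA, a smaller number of cells of a type and less RNA per cell cannot be told apart. Hepatocyte markers were high in both libraries, with the exception of Alb and Serpina3k, which are listed at 0 in both, and all 10 measured ones had log2 ratios below 0, from -1.40 (Cyp2e1) and -1.07 (Ttr) to -0.14 (Ahsg) and -0.10 (Apob). Under TPM 4 of them, and under the equal-sum rescaling 3, lay above 0, and their median of -0.40 became -0.06 and -0.12 under these rescalings. Their summed level was 40020 FPKM in the SRSF2-KO-labelled library and 59940 FPKM in the WT-labelled library. Alb and Serpina3k add nothing to these sums or to the totals behind TPM. Whether their 0 values are levels or gaps in the deposited values is not given. Stellate and fibroblast markers summed to 259.3 FPKM (labelled SRSF2-KO) against 139.2 FPKM (labelled WT), with 6 of 14 being 2-fold or more higher, led by Col1a1 and Lum, whereas Colec11 and Lrat, a marker of vitamin A storing cells, were lowest at -0.64 and -0.60. Macrophage and Kupffer markers summed to 311.2 FPKM (labelled SRSF2-KO) against 264.7 FPKM (labelled WT), with 4 of 15 being 2-fold or more higher (Trem2, Gpnmb, Cd14 and Lyz2) and 3 lower (Timd4, Cd5l and Clec4f). Of these, Trem2 and Gpnmb were under 1 FPKM in the WT-labelled library and Timd4 in the SRSF2-KO-labelled library. Lymphocyte markers summed to 65.6 FPKM (labelled SRSF2-KO) against 32.5 FPKM (labelled WT), of which Cd52 made up 54.0 FPKM (labelled SRSF2-KO) against 27.8 FPKM (labelled WT). Of 5 measured lymphocyte markers, 1 was 2-fold or more higher, Ltb, which was under 1 FPKM in the WT-labelled library. Cd52 followed at a log2 ratio of 0.93. Neutrophil markers summed to 26.6 FPKM (labelled SRSF2-KO) against 8.19 FPKM (labelled WT), with S100a8 and S100a9 2-fold or more higher of 3 measured, Ly6g listed at 0 in both libraries and Mpo listed at 0 in the SRSF2-KO-labelled library. Bile duct markers summed to 279.4 FPKM (labelled SRSF2-KO) against 26.5 FPKM (labelled WT), of which Spp1 made up 265.8 FPKM (labelled SRSF2-KO) against 21.9 FPKM (labelled WT). Of 4 measured bile duct markers, 3 were 2-fold or more higher (Spp1, Cldn7 and Sox9). The other, Krt19, a defining marker, was at 0.426 FPKM (labelled SRSF2-KO) against 1.10 FPKM (labelled WT). Sinusoidal endothelial markers summed to 117.1 FPKM (labelled SRSF2-KO) against 195.5 FPKM (labelled WT), with 6 of 15 being 2-fold or more lower, led by Oit3 and Kdr, Egfl7 at a log2 ratio of -0.01 and Stab1 2-fold or more higher. Erythroid markers summed to 317.5 FPKM (labelled SRSF2-KO) against 540.3 FPKM (labelled WT), with none of 5 measured at least 2-fold apart and Alas2 lowest at -0.99. Under TPM the endothelial markers 2-fold or more lower numbered 3, the macrophage markers 2-fold or more lower 1, the stellate markers 2-fold or more higher 8 and the lymphocyte markers 2-fold or more higher 4. With at least 1 FPKM required in both libraries, 2 of 12 macrophage markers were 2-fold or more higher and 2 lower. Their median was then 0.14, against 0.41 before. Of stellate markers 4 of 12 were then 2-fold or more higher, and of lymphocyte markers 0 of 2. The neutrophil (2 of 2) and bile duct (3 of 3) markers were all 2-fold or more higher. Of all such rows, 3.17% were 2-fold or more higher and 2.86% lower. The part of these shifts in the levels of Malat1 and Neat1 was not tested.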

How the data were processed

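The authors deposited 1 table of FPKM, with 1 SRSF2-KO and 1 WT column. Bowtie 0.12.2 and build mm9 appear, per the submitters' processing notes, without further parameters. Which program computed FPKM, with what annotation, strandedness and filters, is not given in the sources used here. The deposited FPKM summed to 523254 (labelled SRSF2-KO) against 666262 (labelled WT), so every log2 ratio shifts with the scaling chosen.

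Columns were matched to libraries by name. Malat1, Neat1 and all list genes were taken as the row with the highest mean. The members and lists were chosen with earlier results of these data known. Of 304 listed symbols in 22 lists, the table held 279, of which 11 by an older symbol (RefSeq synonyms). The measure was log2((SRSF2-KO + 1)/(WT + 1)) for rows that reached 1 FPKM in either library, and rows at least 2-fold apart on that scale were counted. No test was run, with 1 library per genotype. Genes named in the text were Malat1, Neat1, Srsf2, the 2 highest and 2 lowest members of each list and all at least 2-fold apart in the lists of partner proteins and noncoding RNAs, the 5 symbols nearest to each RNA and the 5 nearest neighbours on each side; 2 such genes are not reported here. Marker lists are given by counts and sums with some of these genes. Others were named for their role or after their values were seen, and the length classes were also chosen then.

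Depth was fitted from whole-read steps in genes for which GENCODE M21 lists 1 transcript, of 1000 to 8000 bases, with a length offset of 180 bases. Of values worth 1 to 3 reads, 71.9% (467 genes) and 75.1% (434 genes), for the libraries labelled SRSF2-KO and WT, came within 0.1 reads of a whole number. Reads of other genes used the median length of their protein-coding transcripts, or of all their transcripts where they have none. GENCODE belongs to GRCm38, not mm9, and was used for lengths, gene classes, gene order and transcript sequences, with no coordinates. Scripts ran in Python 3.11.15 with scipy 1.17.1 and were tested on simulated data.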

Additional observations from a re-analysis of the deposited data

How the results depend on the processing

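The log2 ratio of Malat1 was 1.24 and became 1.59 under TPM, 1.53 with sums made equal outside the top 50 rows, 1.32 centred on the median and 1.29 centred on genes with long transcripts, the last chosen after seeing the data. For Neat1 it was 1.57, against 1.94, 1.85, 1.64 and 1.62 under the same settings, and 1.64 and 1.44 with pseudocounts of 0.1 and 3. Summing all rows of a symbol changed nothing, as each has 1 row. Rows at least 2-fold higher numbered 627, against 1059 and 314 with pseudocounts of 0.1 and 3, 1222 under TPM, 953 with equal sums, 366 at 5 FPKM and 323 with at least 1 FPKM in both libraries. Rows at least 2-fold lower numbered 368, against 551 and 242 with pseudocounts of 0.1 and 3, 227 under TPM and 226 with equal sums. Partner and processing proteins at least 2-fold apart numbered 0, against 1 with a pseudocount of 0.1, 2 under TPM and 1 with equal sums. Of 176 recomputed list medians, 16 changed sign, in 6 lists. No paired analysis was possible because each genotype has 1 library, and for the same reason none could be left out. Depth limits the interval of each ratio but not the unknown spread between animals.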

Other observations

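Histone transcripts, which lack a poly(A) tail when made in S phase, were near equal levels where abundant. Hist1h2bc stood at 112.7 FPKM in the SRSF2-KO-labelled library and 115.6 FPKM in the WT-labelled library, and Hist1h1c at 22.9 FPKM (labelled SRSF2-KO) against 21.2 FPKM (labelled WT). The rarer Hist1h4i and Hist1h4h were at 0.340 FPKM (labelled SRSF2-KO) against 1.97 FPKM (labelled WT) and 1.40 FPKM (labelled SRSF2-KO) against 3.11 FPKM (labelled WT). Hist2h3c1, also rare, was at 1.02 FPKM (labelled SRSF2-KO) against 0.567 FPKM (labelled WT), a ratio of 1.79 with a counting interval of 1.02 to 3.35. The list named for RNAs without a poly(A) tail had 5 measured members of 14, with a median log2 ratio of -0.04 that was 0.31 under TPM and 0.25 under the equal-sum rescaling. A single value per gene does not tell whether the histone transcripts counted here lacked a tail.

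Xist, the nuclear RNA that silences an X chromosome in female cells, stood at 0.0050 FPKM in the SRSF2-KO-labelled library and 0.0063 FPKM in the WT-labelled library. The 4 Y-linked genes examined were present in both libraries and summed to 34.7 FPKM (labelled SRSF2-KO) against 39.9 FPKM (labelled WT), led by Eif2s3y at 19.2 FPKM (labelled SRSF2-KO) against 22.4 FPKM (labelled WT). None of the 4 was at least 2-fold apart, where 8.71% of all measured rows were.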
